A study of Mus musculus with 6 samples.

Results

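A set of 10 genes known to be switched on by both the glucocorticoid receptor and the progesterone receptor was followed in mouse uterus. Every animal had a transgene for SF1, a nuclear receptor of steroid-making tissues. This transgene was silenced in controls, while a recombinase inserted at the progesterone receptor gene was there to activate it in the other mice. The 10 genes are Fkbp5, Tsc22d3, Per1, Sgk1, Zbtb16, Klf9, Klf15, Dusp1, Mt1 and Mt2. Members were taken by name, using every probe set of the array that the platform annotation gives to exactly 1 gene symbol on that list. All 10 members were measured, of 18193 genes in all, by 24 probe sets. A probe set is a group of short array probes read as 1 value, and 0 probe sets named a member together with another gene.

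Total RNA came from uterine horns of C57BL6J mice, without cervix, and was read on 1-colour Affymetrix whole-genome arrays. The control group (3 arrays) carried SF1LsL/+, a silenced SF1 transgene, and no Cre. The SF1 group (3 arrays) carried Pgrcre/+ SF1LsL/+, the same transgene with Cre recombinase placed at the progesterone receptor gene Pgr, so that by design cells that express Pgr turn the transgene on. The transgene was therefore shared by all animals, while Cre, the Pgr allele that holds it and SF1 differed together. Each array held RNA pooled from 2 uteri, taken 2 weeks after a surgery. The sources used here do not give the kind of surgery, the age, the hormone state or the hour of collection. The probe sets of Nr5a1, the gene of SF1, gave log2 differences of 0.00 and 0.08 (limma adjusted p = 0.992 and 0.535). Whether their probes lie within the transgene is unknown, so these values are no check of SF1 expression or of the labels. P-values measure the spread between these pools only.

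Glucocorticoid and progesterone receptors are hormone-activated transcription factors that bind nearly the same DNA element, a pair of inverted arms that each resemble TGTTCT. Many genes therefore answer to either hormone, among them feedback regulators of the receptors, kinases, phosphatases, transcription factors and metal-binding proteins. In the uterus progesterone restrains epithelial growth and prepares the stroma for implantation, and the mineralocorticoid receptor can use the same element.

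The promoters were looked at first, because the members are grouped by this shared element. RefSeq start sites (GRCm38.p6) gave 17 windows of 250 bases before a start site for 9 members, all but Zbtb16. The full element was searched as GNACANNNTGTNC, which reads the same on both strands, and it occurred in 2 of the 17 windows, against 0.387% of 32851 windows of all genes. These 2 windows belonged to Sgk1, in 1 of its 6 windows, and to Mt1. Sequence outside the windows was not searched, so a window without a match does not show that a gene lacks the element. The Sgk1 window is shown because it holds the element (capitals), whose first base lies 188 bases before the start site. The Mt2 window is shown because Mt2 had the largest difference of all members. Its capitals mark matches to the core of the metal response element, the site of the zinc sensor MTF1, searched on both strands as TGCGCNC and TGCACNC.
Sgk1, chr10:21993640-21993889, plus strand: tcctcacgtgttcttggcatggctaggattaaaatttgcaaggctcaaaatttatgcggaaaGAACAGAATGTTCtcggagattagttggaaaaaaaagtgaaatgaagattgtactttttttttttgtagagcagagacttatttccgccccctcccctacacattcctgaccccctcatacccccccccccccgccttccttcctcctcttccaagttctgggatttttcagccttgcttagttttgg
Mt2, chr8:94172368-94172617, plus strand: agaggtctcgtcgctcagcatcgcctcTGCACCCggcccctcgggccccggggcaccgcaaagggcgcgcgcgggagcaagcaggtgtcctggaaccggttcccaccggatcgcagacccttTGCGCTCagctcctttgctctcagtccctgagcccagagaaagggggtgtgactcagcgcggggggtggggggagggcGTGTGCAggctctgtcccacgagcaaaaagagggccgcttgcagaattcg

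The arms of the Sgk1 element are themselves among the 3 matches to TGTTCT in that window. That shorter motif occurred in 4 of the 17 member windows and in 16.1% of all windows. In the Mt1 window the element read GGACATGATGTTC, with its first base 94 bases before the start site. The Mt1 window is not printed because the annotated Mt1 gene begins inside it. Mt2 had 3 metal element matches in its window and Mt1 had 1, where at least 3 were found in 1.26% of all windows and at least 1 in 21.4%. Part of the Mt1 window lies within the annotated gene, so its counts and positions are not like for like with those of Mt2. The Klf15 window and 1 window of Per1 also held 1 match each. The Dusp1 window held the cyclic AMP response element TGACGTCA, found in 1.55% of windows. The E-box CACGTG, found in 6.02% of all windows, occurred in the windows of Fkbp5, Klf15 and Dusp1 and in 1 window each of Per1 and Sgk1. A match is a description of letters and was not tested for binding.

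The 10 members did not move together. For each gene the probe set with the highest mean was used, and a gene was called at a limma adjusted p under 0.05 over all 45037 tested probe sets. Of the 10, 2 were called higher in SF1 (Fkbp5 and Sgk1), 4 were called lower (Tsc22d3, Zbtb16, Klf9 and Mt2) and 4 were not called (Per1, Klf15, Dusp1 and Mt1). Over all genes 8.45% were called higher and 8.11% lower, 16.6% in either direction. Of all calls 51.0% were higher, and 63.0% after median centring. The groups did not overlap for 7 members, the 6 called genes and Per1, where 39.9% of all genes did not overlap. The median log2 difference, SF1 minus control, was -0.31 over the members and -0.05 over all genes. By probe set, 2 of 24 were called higher and 10 lower, against 5.88% and 8.08% of all probe sets (14% in either direction).

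**Figure D1:**
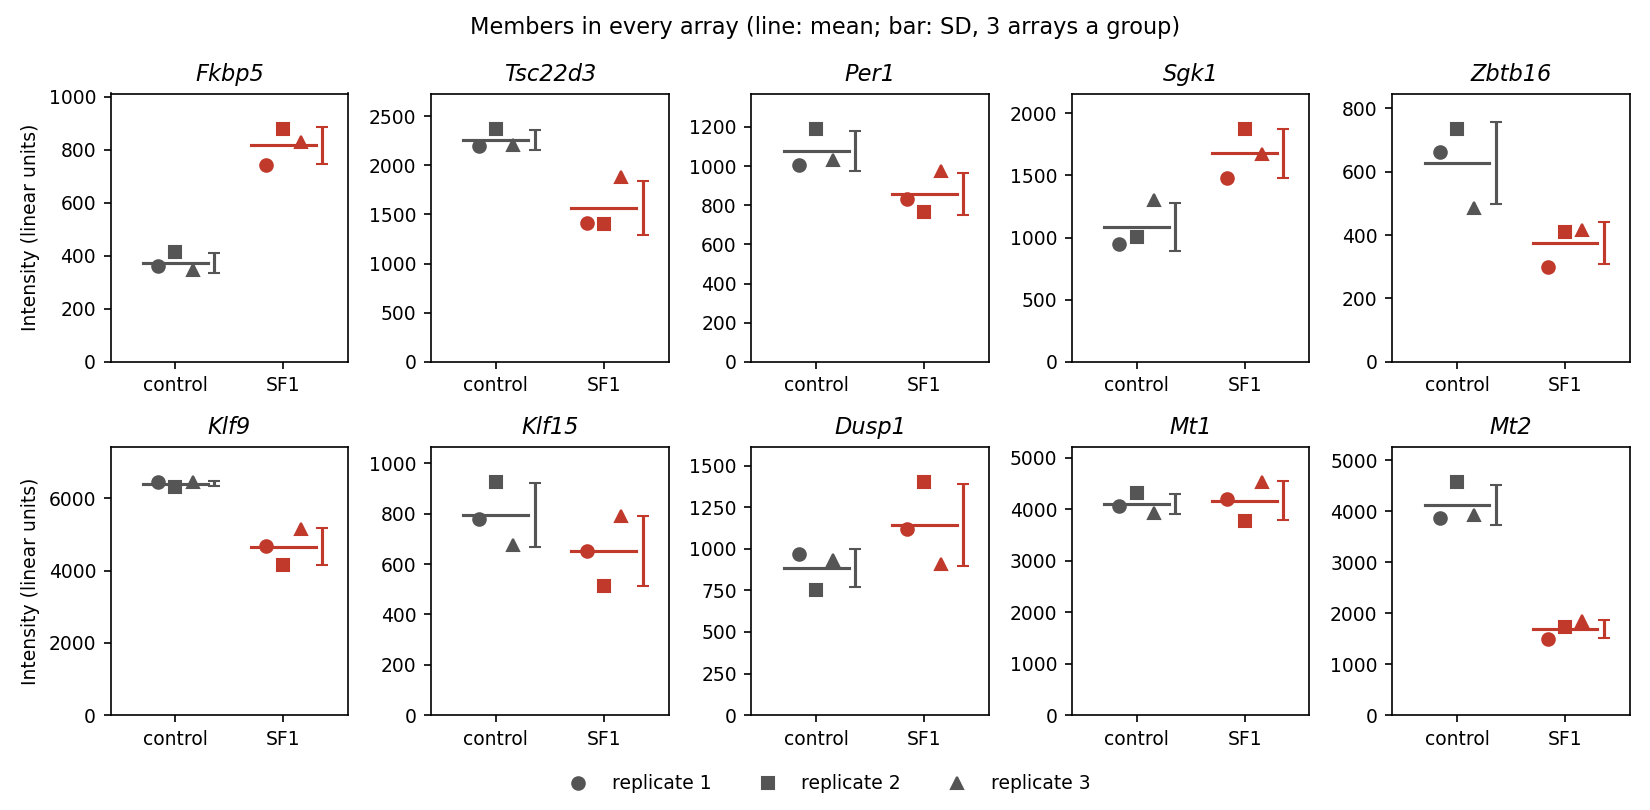
Intensity of each member's brightest probe set (vertical axes, linear units, from 0) in the 3 control arrays (grey) and the 3 SF1 arrays (red). Symbols mark replicates 1 to 3, lines the group mean and bars the SD. Fkbp5 and Sgk1 lie higher in every SF1 array, Tsc22d3, Per1, Zbtb16, Klf9 and Mt2 lie lower in every SF1 array, and the other 3 overlap.

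Fkbp5 encodes FKBP51, a chaperone partner that lowers the hormone affinity of glucocorticoid and progesterone receptors and so feeds back on them. It read 360.2, 415 and 345 intensity units in the control arrays, and 743, 879.8 and 829 in the SF1 arrays, each in the order of replicates 1 to 3 as in all such lists below. Every SF1 array lay above every control array, and the gap was wider than the spread of either group. The rise was from 374 ± 37.0 to 817 ± 69.3 (SD, n = 3), a ratio of means of 2.19 (1.10 ± 0.10 SE on the log2 scale, limma adjusted p = 0.000194). It kept its call without any one of the 6 arrays (log2 change 1.04 to 1.17). The other probe sets of Fkbp5 were dimmer and not called. The second gave 115, 76.0 and 119 in control against 122, 143 and 125 in SF1 (0.31, adjusted p = 0.193), and the third read below 18 in every array (0.26, adjusted p = 0.333). With the log2 values of all its probe sets averaged, Fkbp5 rose by 0.56 (adjusted p = 0.00867). Fkbp4, the related chaperone FKBP52 that opposes FKBP51, had a log2 difference of -0.16 on its brightest probe set (adjusted p = 0.224) and of -0.33 on the second (adjusted p = 0.0230).

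Sgk1 encodes a kinase that regulates sodium channels and cell survival, and it also answers to mineralocorticoids. It has a single probe set, which read 949, 1005 and 1304 in control and 1476, 1876 and 1674 in SF1. The groups did not overlap, and the nearest arrays were control replicate 3 and SF1 replicate 1. Means were 1086 ± 191 and 1676 ± 200 (SD, n = 3), a difference of 0.63 ± 0.14 (SE) on the log2 scale (limma adjusted p = 0.0176). This call was lost without control replicate 1 (0.54, adjusted p = 0.0649), SF1 replicate 2 (0.54, 0.0637) or SF1 replicate 3 (0.62, 0.0552).

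Mt1 and Mt2 encode metallothioneins, small cysteine-rich proteins that bind zinc and copper. Both genes are induced by zinc and by glucocorticoids, and they lie next to each other on chromosome 8 with 0 annotated genes between them. Mt2 read 3876, 4580.5 and 3928 in control and 1491, 1740.0 and 1839 in SF1. Every SF1 array lay below every control array, and the gap was wider than the spread of either group. The fall was from 4128 ± 392.4 to 1690 ± 179 (SD, n = 3), and control was 2.44 times SF1 (log2 change -1.28 ± 0.11, SE; limma adjusted p = 0.000122). This was the largest difference of the 10 members, and it kept its call without any one array (-1.35 to -1.20).

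The neighbour Mt1 differed from this. Its brighter probe set read 4064, 4314 and 3929 in control and 4206, 3762 and 4531 in SF1. The groups overlapped, with SF1 replicate 2 the lowest of the 6 arrays and SF1 replicate 3 the highest. The log2 difference of Mt1 was 0.02 (95% interval -0.19 to 0.23, adjusted p = 0.908 by limma), and its sign turned after quantile normalization and without control replicate 3 or SF1 replicate 3. That interval does not reach the change of Mt2, whose own interval ran from -1.53 to -1.04. The dimmer Mt1 probe set, which read below the median intensity in every array, gave 82.8 ± 2.43 and 83.5 ± 5.31 (SD, n = 3; 0.01, adjusted p = 0.951). The difference between the genes was taken within each array as log2 Mt2 minus log2 Mt1, a comparison chosen after their values were seen. It was -0.07, 0.09 and -0.00 in control and -1.49, -1.11 and -1.29 in SF1, and so shifted by -1.30 (two-sided exact permutation p = 0.1, which is the smallest possible with 3 arrays a group). A ratio within an array shows unequal change of the probe sets. Whether the probes of either gene also bind the other transcript was not tested.

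Klf9 encodes a Krüppel-like zinc finger factor that partners with the progesterone receptor in the uterus. Its brightest probe set read 6439, 6319 and 6456 in control and 4690.3, 4152 and 5154 in SF1. The control arrays lay close together and all 3 SF1 arrays lay lower, most so in replicate 2. Means were 6405 ± 74.9 and 4665 ± 502 (SD, n = 3), with control 1.37 times SF1 (-0.46 ± 0.09 SE on the log2 scale, limma adjusted p = 0.0128). It kept its call without any one array (-0.54 to -0.38, highest adjusted p = 0.0479). Klf9 has 7 probe sets, of which 4 were called lower and 0 higher. All 7 had negative differences, from -0.50 to -0.16, and the groups did not overlap, with SF1 lower, in 6 of them, as in 24.6% of all probe sets.

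Zbtb16 encodes PLZF, a zinc finger repressor that rises strongly when endometrial stroma meets progesterone. Its brightest probe set read 663, 736 and 484 in control and 299, 410.2 and 416 in SF1. All 3 SF1 arrays lay below the controls, with control replicate 3 closest to them. The fall was from 628 ± 130 to 375 ± 65.9 (SD, n = 3), a difference of -0.71 ± 0.17 (SE) on the log2 scale (limma adjusted p = 0.0280). All 3 probe sets of Zbtb16 were called lower, with log2 changes of -0.73 (adjusted p = 0.0111) and -0.40 (0.0383) for the other two. The call of the brightest was lost without control replicate 1 (-0.66, adjusted p = 0.0887), control replicate 2 (-0.59, 0.0657), SF1 replicate 1 (-0.56, 0.0898) or SF1 replicate 2 (-0.78, 0.0517).

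Tsc22d3 encodes GILZ, a leucine zipper protein through which glucocorticoids dampen inflammation. It read 2193, 2374 and 2210 in control and 1408, 1406 and 1883 in SF1 on its brightest probe set. SF1 replicates 1 and 2 were alike, and SF1 replicate 3 lay nearer the controls without reaching them. Means were 2259 ± 99.8 and 1565 ± 275 (SD, n = 3), a difference of -0.54 ± 0.12 (SE) on the log2 scale (limma adjusted p = 0.0200). The next probe set also fell, by 0.55 on the log2 scale (adjusted p = 0.0241), and 2 dim probe sets were not called, at 0.15 and -0.15. The call was lost without control replicate 1 (-0.56, adjusted p = 0.0552), 2 (-0.50, 0.0501) or 3 (-0.55, 0.0502), and without SF1 replicate 1 (-0.47, 0.0777) or 2 (-0.47, 0.0714). It held only without SF1 replicate 3 (-0.68), and it also missed the threshold when the log2 values of all its probe sets were averaged (-0.27, adjusted p = 0.0503).

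**Figure D2:**
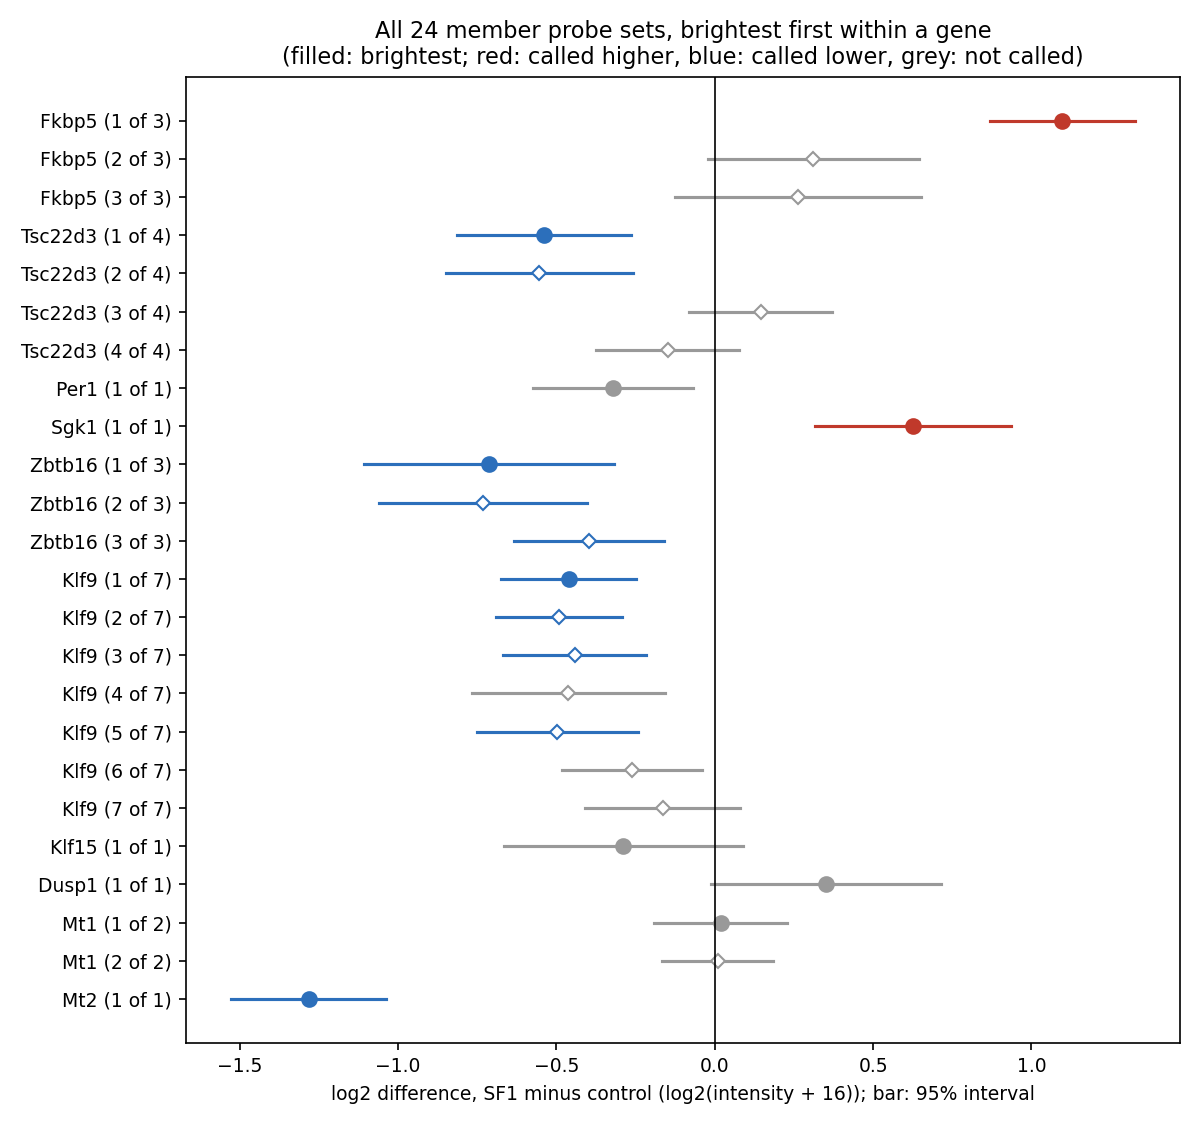
Log2 difference, SF1 minus control (horizontal axis, on the log2(intensity + 16) scale), of all 24 member probe sets with 95% intervals, ordered by brightness within a gene. Fkbp5 reaches 1.10 on its brightest probe set only, all 7 Klf9 and all 3 Zbtb16 probe sets lie below 0, and Mt2 at -1.28 stands far from both probe sets of Mt1.

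The other 3 members were not called. Per1, a clock gene that glucocorticoids induce directly, read 1003, 1192 and 1032 in control and 833, 768 and 976 in SF1. The arrays did not overlap, but the gap between control replicate 1 and SF1 replicate 3 was narrow, and the log2 difference of -0.32 ± 0.11 (SE) missed the threshold (limma adjusted p = 0.0907). Klf15, a regulator of amino acid and fat metabolism, read 779, 927 and 675 in control and 652, 512 and 789.9 in SF1, with overlapping groups (-0.29, 95% interval -0.67 to 0.09, adjusted p = 0.279). Dusp1, a phosphatase that switches off MAP kinases, read 968, 754 and 930.5 in control and 1121, 1402 and 909 in SF1. Only SF1 replicate 3 lay within the control range of Dusp1, and the interval of its log2 difference of 0.35 ran from -0.01 to 0.72 (adjusted p = 0.178).

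Within the SF1 group the members did not share 1 order of arrays. SF1 replicate 3 gave the highest value for 7 members, among them Tsc22d3, Per1, Klf9, Klf15 and Mt1, and SF1 replicate 2 for Fkbp5, Sgk1 and Dusp1. SF1 replicate 2 was the lowest SF1 array for 5 members. For the largest change, that of Mt2, the genes with the most similar values over the 6 arrays were Dact2 (Pearson r = 0.999), Pcgf3 (0.999) and Gm11627 (0.998), among 13686 genes with a mean of at least 100 intensity units. These correlations rest on 6 arrays in 2 groups and are a description only.

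**Figure D3:**
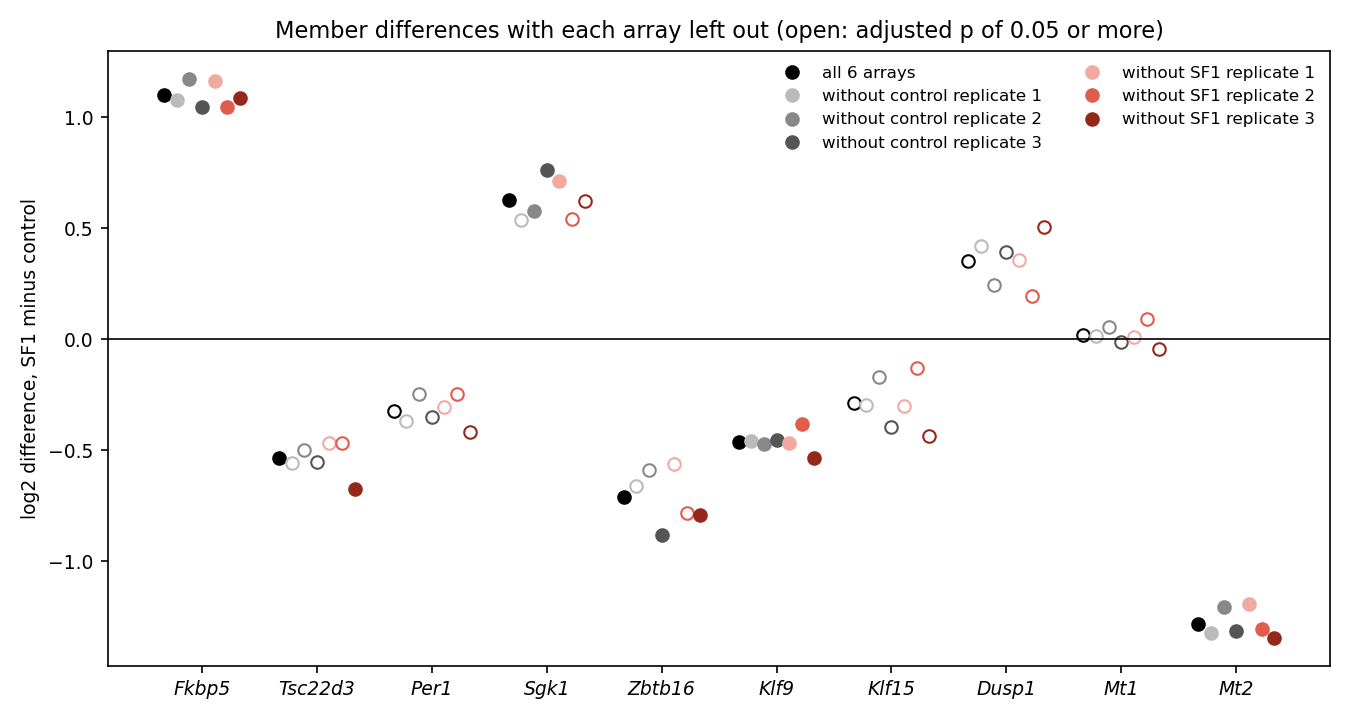
Log2 difference of each member (vertical axis, SF1 minus control) with all 6 arrays (black) and with each array left out in turn (grey for control, red for SF1). Filled points had a limma adjusted p under 0.05. Fkbp5, Klf9 and Mt2 stay filled throughout, Sgk1 and Zbtb16 lose some, and Tsc22d3 stays filled only without SF1 replicate 3.

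The receptors and steroid-converting enzymes were examined next. Pgr, whose locus carries Cre in the SF1 group, read 4899, 4747 and 4744 in control and 1932, 1719 and 2027 in SF1 (log2 change -1.34, limma adjusted p = 3.23e-05). That was its brightest probe set, and the dimmer ones fell less, at -0.79 (adjusted p = 0.00160) and -0.90 (adjusted p = 0.000189). The glucocorticoid receptor gene Nr3c1 was not called, at 1287, 1196 and 1312 in control and 1240, 987 and 1171 in SF1 (-0.16, 95% interval -0.39 to 0.07, adjusted p = 0.313). All 6 of its probe sets had negative differences, from -0.25 to -0.09, and none was called. The mineralocorticoid receptor gene Nr3c2 gave 315 ± 15.4 and 315 ± 29.9 (SD, n = 3), a log2 difference of -0.00 (interval -0.21 to 0.20).

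Hsd11b1, the enzyme that regenerates active glucocorticoid inside cells, rose in SF1. It read 456, 553 and 568 in control and 929, 925 and 788 in SF1, a gap wider than either group's spread (log2 change 0.73 ± 0.11, SE; limma adjusted p = 0.00298). H6pd, which supplies Hsd11b1 with its cofactor, rose by 0.38 at the edge of the threshold (adjusted p = 0.0499). That call was lost in 5 of the 6 fits with an array left out (all but the one without control replicate 3, highest adjusted p = 0.141) and with the replicate number as a block (0.0983). Hsd11b2, which inactivates glucocorticoids, read 769, 753 and 755 in control and 900.0, 841 and 1356 in SF1. Every SF1 array of Hsd11b2 lay above every control array, but the gene was not called (0.40, 95% interval 0.04 to 0.77, adjusted p = 0.135). Of the 12 measured receptors, enzymes and chaperones on the list, 2 rose (Hsd11b1 and H6pd), 1 fell (Pgr) and 9 were not called. The list thus had 16.7% higher and 8.33% lower, where all genes had 8.45% and 8.11%. Its count of risen genes was 1 when any 1 array other than control replicate 3 was left out.

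Other glucocorticoid-responsive genes were mixed as well. Of 29 measured, 7 rose, 6 fell and 16 were not called, with a median log2 difference of -0.03. Both shares, 24.1% higher and 20.7% lower, lay above the 8.45% and 8.11% of all genes, which was not tested. Ddit4, an inhibitor of mTOR signalling, rose from 1095, 1186 and 1164 to 1989, 1999 and 1989, with no overlap (0.79 ± 0.07, SE; limma adjusted p = 0.000223). Lcn2, an iron-carrier protein gene also induced by inflammation, rose by 3.57 (adjusted p = 0.000432) and was uneven, at 5307, 11672 and 3351 in SF1 replicates 1 to 3. Cdkn1c, a cell cycle inhibitor gene, fell by 1.06 on the log2 scale (adjusted p = 0.000357), and Sult1a1, a sulfotransferase gene, by 0.74 (adjusted p = 0.00387). Without SF1 replicate 1 the fallen genes numbered 3.

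Uterine targets of the progesterone receptor, by contrast with the members, lay mostly on 1 side. Of 17 measured, 15 fell, 1 rose and Foxo1 was not called, with a median log2 difference of -0.88. That is 88.2% lower and 5.88% higher, beside 8.11% and 8.45% of all genes. Msx1, a homeobox gene, fell by 1.48 on the log2 scale (limma adjusted p = 2.09e-05) and Ptch1, the Hedgehog receptor gene, by 1.36 (adjusted p = 0.000107). Wnt4, a stromal Wnt ligand gene, rose from 725 ± 71.3 to 1308 ± 104 (SD, n = 3; 0.84, adjusted p = 0.000788). This list was chosen with earlier results of these data known, and its difference from the members was not tested.

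**Figure D4:**
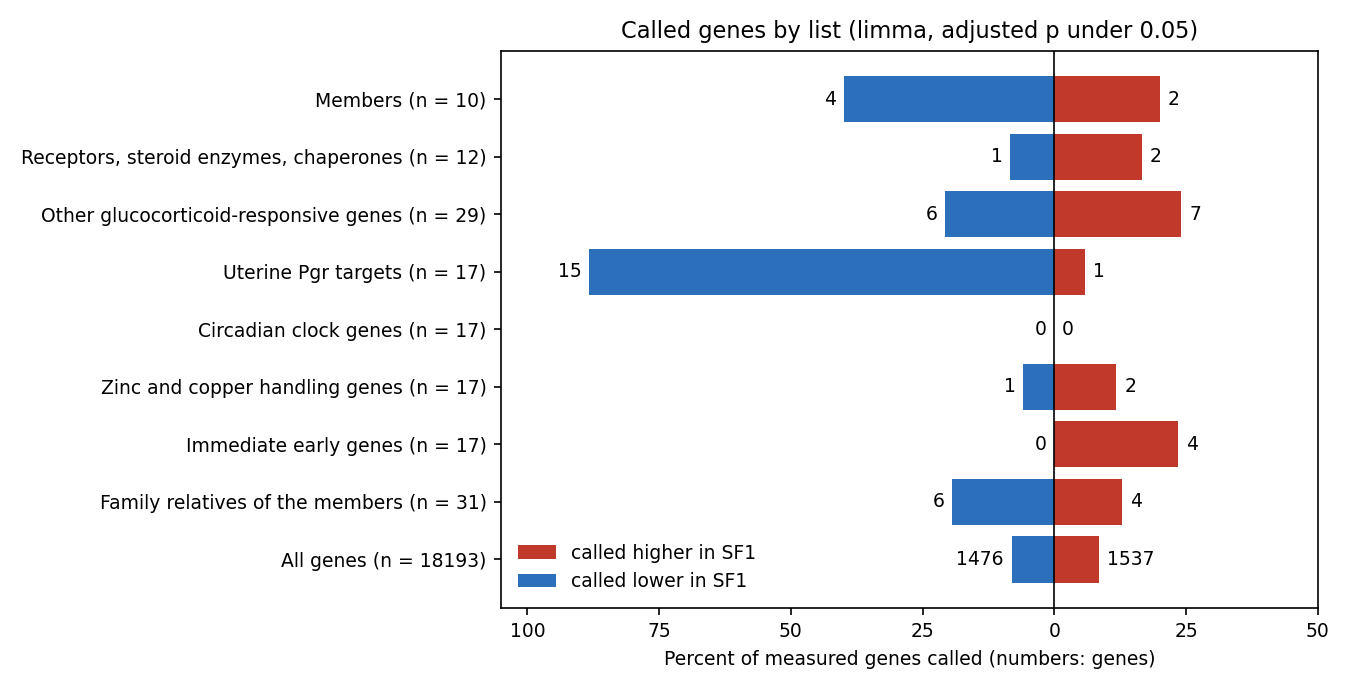
Percent of the measured genes of each list that were called higher (red, to the right) or lower (blue, to the left) in SF1, with the number of genes beside each bar and all 18193 genes at the bottom. The members have 4 lower and 2 higher, the uterine Pgr targets 15 lower and 1 higher, and the clock genes 0 on either side.

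Per1 was set beside the other clock genes. Of 17, limma called 0 higher and 0 lower at an adjusted p under 0.05. At an unadjusted p under 0.05, 2 were higher and 4 lower, where 13.7% of all 18193 genes were higher and 18.4% lower, and with a trended and robust spread 1 was called each way. Per3, the relative of Per1, read 1342, 1678 and 1479 in control and 1036, 867 and 1287 in SF1, not overlapping but not called (-0.50, adjusted p = 0.0536). Per2 gave 0.10 and Dbp, an output gene of the clock, 0.08, both with overlapping groups. In SF1 replicate 2 the summed level of the clock list was 16739 intensity units, against 19664 to 22422 in the other 5 arrays. Per1, Per3, Dbp, Tef, Hlf, Cry2, Nr1d2 and Rora read lowest there of the 6 arrays, while Npas2, Nfil3 and Bhlhe40 read highest. The rest of the clock list was neither lowest nor highest there. The part of this array in the result for Per1 was not tested. Without it, the difference of Per1 was -0.25 (adjusted p = 0.223).

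Metal handling genes were set beside Mt1 and Mt2. Of 17 measured, 2 rose, 1 fell and 14 were not called. These were 11.8% higher and 5.88% lower, near the 8.45% and 8.11% of all genes. Mtf1, the zinc-sensing activator of metallothionein genes, had a log2 difference of 0.02 (95% interval -0.22 to 0.26, adjusted p = 0.916), and the zinc exporter gene Slc30a1, another MTF1 target, 0.02 (-0.15 to 0.19, adjusted p = 0.857). Slc30a2, a vesicular zinc transporter gene, rose from 29.1, 21.8 and 32.8 to 343, 464 and 302 (3.12, limma adjusted p = 1.18e-05). Atp7b, a copper pump gene, rose by 1.08 (adjusted p = 0.00474), and Slc39a14, a zinc importer gene, fell by 0.60 on the log2 scale (adjusted p = 0.00246). With probe sets averaged these were 0.31 for Atp7b (adjusted p = 0.0487) and -0.31 for Slc39a14 (0.0355). Mt3, the brain metallothionein gene, was dim and not called (-0.17).

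Dusp1 is also an immediate early gene, induced within minutes by growth factors and stress. Of 17 other immediate early genes 4 rose, 0 fell and 13 were not called (limma), where 8.45% of all genes were higher and 8.11% lower. At an unadjusted p under 0.05 there were 6 higher and 0 lower, beside the same 13.7% and 18.4% of all genes. Fos read 398, 216 and 284 in control and 687, 1036 and 506 in SF1 (1.25, adjusted p = 0.0172), and Junb rose by 0.77 (adjusted p = 0.0324). Both read highest in SF1 replicate 2 and lowest of the SF1 arrays in replicate 3, the order that Dusp1 also had. The other called genes did not have this order, with Egr1 at 1902, 1699 and 1487 and Fosl2 at 1510, 1721 and 1597 in SF1. The count of risen genes was 0 without SF1 replicate 1, 1 without control replicate 3 and 2 when control replicate 1, control replicate 2 or SF1 replicate 2 was left out. Fos lost its call without control replicate 3 or SF1 replicate 1 (highest adjusted p = 0.0548), and Junb without any control array or SF1 replicate 1 (highest 0.0908).

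Relatives of the members within their own families gave 4 rises and 6 falls among 31 measured. Their shares were 12.9% higher and 19.4% lower, against 8.45% and 8.11% of all genes. Klf5 (-0.72, limma adjusted p = 0.000938) and Klf11 (-0.64, adjusted p = 0.00151), both Krüppel-like factors, fell most, and Klf13, a close relative of Klf9, was not called (-0.21). Dusp14 (0.92, adjusted p = 0.000798) and Dusp5 (0.57, adjusted p = 0.00691), phosphatases of the Dusp1 family, rose most. Tsc22d1, unlike Tsc22d3, rose from 9361 ± 205 to 13249 ± 591 (SD, n = 3; 0.50).

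Markers of other cell types also differed between the groups. In bulk tissue, fewer cells of a type and less RNA per cell cannot be told apart. Markers of the labelled tissue were bright in all arrays. Of 8 epithelial markers 4 rose and 1 fell, with summed levels of 17047 to 17818 in control and 19360 to 21475 in SF1. Of 8 smooth muscle markers limma called 0, with 2 higher and 1 lower at an unadjusted p under 0.05. Their sums were 28595 to 31323 and 30931 to 33356. Of 8 stromal markers 3 fell, at 56911 to 61825 and 51796 to 57043. Of 8 endothelial markers 7 fell, at 6153 to 6399 and 3997 to 4529, and of 8 macrophage markers 6 rose, at 5667 to 9226 and 11438 to 15587. The 9 measured fat cell markers, of which 2 fell, summed to 22114 to 31127 in control and to 22874, 17071 and 6325 in SF1 replicates 1 to 3. Fat expresses several members, among them Klf15. Without SF1 replicate 3, the array with the least fat signal, the log2 differences were -0.68 for Tsc22d3, -0.79 for Zbtb16, -0.54 for Klf9, -1.35 for Mt2 and -0.44 for Klf15, and Sgk1 lost its call as given above. Neutrophil markers, of which 0 of 7 were called by limma and 0 had an unadjusted p under 0.05, summed to 22461 in SF1 replicate 2 and to 515 to 1073 in the other arrays. Without that array Fkbp5 (1.04), Klf9 (-0.38) and Mt2 (-1.31) kept their calls. Sgk1 (0.54, adjusted p = 0.0637), Tsc22d3 (-0.47, 0.0714) and Zbtb16 (-0.78, 0.0517) lost theirs in the same limma fit. Of the members that were not called, Dusp1 then differed by 0.20 (adjusted p = 0.407) and Klf15 by -0.13 (0.612). Of 5 T cell markers 3 rose, with sums of 842 to 1012 in control and 1442 to 1660 in SF1. Of 6 markers of ciliated oviduct cells 4 rose, Ovgp1, an oviduct secretory gene, fell (-0.73, adjusted p = 0.00888) and Dnah5 was not called, with sums of 1392 to 1526 and 3638 to 5146. Of 10 skeletal muscle markers 1 fell, with sums of 1080 to 1280 and 921 to 1034. Of 6 ovary markers 0 were called by limma, with 0 higher and 1 lower at an unadjusted p under 0.05, and their sums were 873 to 950 and 764 to 894. The lowest value of any marker was 13.7, so none was at 0. The part of epithelial, stromal, fat cell, neutrophil, endothelial, macrophage, T cell and ciliated cell markers in the members' differences was not tested.

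Array medians lay between 149.9 and 162.2 intensity units. RNA quality was read as the 3' over 5' signal of beta-actin. It was 2.58, 2.56 and 2.38 in control and 2.34, 2.13 and 2.12 in SF1 (two-sided exact permutation p = 0.1, n = 3). The groups did not overlap, and this p is the smallest possible with 3 arrays a group. The part of this ratio in the differences was not tested. The same ratio of Gapdh was 1.70, 1.65 and 1.53 in control and 1.66, 1.49 and 1.47 in SF1, with overlapping groups (two-sided exact permutation p = 0.3, n = 3). The number of arrays limits the precision.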

How the data were processed

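The deposited table holds probe set intensities on a linear scale for 6 arrays. The authors' summarization and normalization are not given in the sources used here, and a step that compresses or subtracts background would change dim probe sets most. Of 45101 probe sets, 64 array controls were left out. Symbols came from the platform annotation: 34945 probe sets had 1, 932 several and 9160 none. No build is stated for the array values. Promoter windows are RefSeq's (GRCm38.p6).

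Intensities were transformed as log2(intensity + 16), which understates changes of dim genes, and fitted with limma 3.58.1 (lmFit, eBayes) in R 4.3.3 on group alone, with Benjamini-Hochberg adjustment over 45037 probe sets. All adjusted p-values are from limma. Single values used exact permutation tests (scipy 1.17.1). The members, lists and tests were chosen with earlier results of these data known. Named genes were the members, the receptors and enzymes of these hormones, and up to 2 called genes with the largest rise and 2 with the largest fall of each list. Nr5a1 and the list genes named outside this rule were chosen after their values were seen. The fit was tested on simulated data. Replicate numbers did not pair the samples: correlations of deviations from group means were -0.04, -0.12 and -0.18 for the same number. Alternatives were other scalings, pseudocounts of 1 and 64, a filter at 100 units, another variance model, the block, averaged probe sets, an adjusted p under 0.01 and each array left out.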

Additional observations from a re-analysis of the deposited data

How the results depend on the processing

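All 10 members kept the direction of their log2 difference under all 14 settings, apart from Mt1, which was -0.042 after quantile normalization and lay between -0.043 and 0.091 with 1 array left out. Of the receptors, enzymes and leading list genes, run through the same settings after seeing the data, only Nr3c2, near 0, turned its sign, to 0.034 after quantile normalization and 0.048 after median centring, with -0.064 to 0.067 when 1 array was left out. The calls of Fkbp5, Klf9 and Mt2 held in all 14. With 1 array left out, between 1 and 2 members were called higher and between 2 and 4 lower, and by probe set 1 to 2 higher and 4 to 9 lower. At an adjusted p under 0.01 there were 1 member higher (Fkbp5) and 1 lower (Mt2), and by probe set 1 higher and 2 lower. Replicate numbers gave no sign of pairing the samples. With the replicate number as a block, 2 members were called higher and 4 lower, and 1 rather than 2 of the receptor list higher. Calls over all 18193 genes numbered 3013 in the main fit and 1946 to 2376 with 1 array left out. They numbered 1571 at an adjusted p under 0.01 and 2083 with the block.

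Among the related lists, counts with an array left out ranged from 1 to 2 for receptors higher, 3 to 5 for other glucocorticoid-responsive genes lower, 0 to 1 for clock genes in each direction and 0 to 4 for immediate early genes higher. At an adjusted p under 0.01 they were 1 for receptors higher, 3 for other glucocorticoid-responsive genes higher and 3 lower, 0 for immediate early genes higher and 3 for relatives lower. A pseudocount of 1 left 1 receptor-list gene and 2 immediate early genes higher, and a trended and robust spread 2 immediate early genes. Of the clock genes 1 was called higher after median centring, and 1 higher and 1 lower with the filter, a pseudocount of 64, or a trended and robust spread, while averaging probe sets gave 2 lower. Fewer arrays lower the power of every fit, and the other causes were not tested.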
